A study of Mus musculus with 10 samples.

Results

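The cadherin and protocadherin genes were taken as the protein-coding genes of the GENCODE vM1 annotation of mm9 whose symbol is Cdh or Pcdh followed by a digit, or begins with Pcdha, Pcdhb or Pcdhg. The rule gave 59 of 22380 protein-coding genes. Of these, 35 are non-clustered genes, 23 cadherins and 12 protocadherins, which lie apart from the clusters on several chromosomes. The other 24 are gene records of the clustered protocadherins on chromosome 18, and they were counted apart. They comprise 2 alpha, 21 beta and 1 gamma record, because this annotation folds many alternative first exons of the alpha and gamma genes into single records.

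The data were lists of chromatin immunoprecipitation sequencing (ChIP-seq) sites in mouse embryonic stem cells (ESCs), made from 6 ChIP and 4 input libraries. Suz12-TAP and H3K27me3 were profiled in the BayGenomics gene trap line XG122, of genotype Suz12 Suz12TAP/+, in which 1 endogenous Suz12 allele carries a His and Flag tandem affinity (TAP) tag, and the cells expressed either a scramble shRNA or Pcl3 shRNA. Pcl3-TAP was profiled in E14 ESCs that expressed a tagged Pcl3 which the shRNAs do not recognize, together with Pcl3-wildtype-shRNA6 in 1 library and Pcl3-wildtype-shRNA7 in the other. Each condition had 1 library, apart from Pcl3-TAP and its input with 2 each, and those share 1 list, so there was no spread between replicates to test against. The labels call all cells ESCs, and since the lists hold no expression values, this could not be checked by markers.

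The lists gave 8876 sites of Suz12 binding in scramble cells against input, 5722 of these that were depleted with Pcl3 shRNA, 5242 sites of Pcl3 binding and 678 sites of H3K27me3 depleted with Pcl3 shRNA. Each site has a position and a deposited p-value, written as p throughout, from the Skellam distribution, which describes the difference of 2 read counts. A gene was counted as having a site when at least 1 base of it lay within 2 kb of any annotated transcript start. The depleted Suz12 sites repeat the p-values of binding, so a Suz12 p-value measures binding in scramble cells and not the size of the loss. A Pcl3 p-value measures binding of Pcl3-TAP against input, and an H3K27me3 p-value the loss of H3K27me3 from scramble to Pcl3 shRNA cells. The lists give no read counts, and the numbers of aligned reads that the study gives in a supplementary figure were not used here, so no precision is given for a single site. Intervals given are 95% Wilson intervals over genes and cover counting error only.

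Cadherins are calcium-dependent adhesion proteins that join cells of like kind, and embryos change the cadherins that they express as tissues separate. Classical cadherins bind catenins inside the cell, protocadherins use other partners, and both families are known for giving neurons their contacts. The clustered protocadherins are special in that each neuron chooses among many first exons, each with a promoter of its own. Polycomb repressive complex 2 (PRC2), of which Suz12 is a core subunit, trimethylates lysine 27 of histone H3 (H3K27me3) and keeps many developmental genes silent in ESCs, mostly at CpG-rich promoters. Pcl3 is a Polycomb-like protein that associates with PRC2.

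The Pcdh7 promoter was the place in this family that the study examined by ChIP with its own primer pair. The study names Pcdh7 in ChIP for H3K4me3, a mark of active genes that bivalent genes of ESCs carry together with H3K27me3. It lists Pcdh7 among the bivalent genes where H3K4me3 was unchanged with Pcl3 depletion, while other bivalent genes gained H3K4me3 modestly. For this primer pair it names no Suz12 or Pcl3 result. The 2 primers were placed on mm9 by exact match, each at 1 position only. The amplicon is chr5:58108970-58109123, 154 bp long. It ends 137 bases before the annotated start of Pcdh7, on the plus strand, and overlaps an exon of the antisense noncoding gene 4932441J04Rik. It lies inside a Suz12 site, a depleted Suz12 site and a Pcl3 site, and the nearest H3K27me3-depleted site is 9376755 bp away. The primers are written 5′ to 3′ without capitals.
Pcdh7 forward primer: ttctttggaaatccggacag
Pcdh7 reverse primer: gggaactcgagctgaacttg

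Promoters are shown for Pcdh7, Pcdh10 and Pcdh17, which have the widest Suz12 sites among the 7 non-clustered genes that tie at the smallest p-value, and for Cdh10, which had no site and was chosen for contrast after its values were seen. The sequences are from RefSeq (GRCm38.p6) and were placed on mm9 by exact match. Each is the stretch of the 250 bases before the RefSeq start that no annotated exon covers, read along the gene, with every CpG in capitals. The stretches are chr5:58109159-58109259 for Pcdh7, chr3:45182183-45182319 for Pcdh10, chr14:84843120-84843369 for Pcdh17 and chr15:18749834-18750083 for Cdh10, all on the plus strand. Over the whole 250 bases Pcdh10 held 22 CpG, Pcdh17 21, Pcdh7 7 and Cdh10 2, against a median of 6 over all 32851 promoters of the table.
Pcdh7: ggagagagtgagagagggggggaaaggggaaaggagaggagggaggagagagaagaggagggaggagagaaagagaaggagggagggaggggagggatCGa
Pcdh10: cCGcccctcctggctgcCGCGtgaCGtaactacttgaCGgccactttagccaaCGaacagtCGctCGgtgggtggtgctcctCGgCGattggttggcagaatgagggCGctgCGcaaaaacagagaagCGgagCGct
Pcdh17: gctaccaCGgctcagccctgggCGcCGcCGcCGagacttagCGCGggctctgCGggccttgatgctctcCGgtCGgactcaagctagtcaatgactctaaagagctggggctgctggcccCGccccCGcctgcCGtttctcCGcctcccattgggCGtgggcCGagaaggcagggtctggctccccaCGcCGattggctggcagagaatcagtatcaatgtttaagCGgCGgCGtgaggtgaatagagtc
Cdh10: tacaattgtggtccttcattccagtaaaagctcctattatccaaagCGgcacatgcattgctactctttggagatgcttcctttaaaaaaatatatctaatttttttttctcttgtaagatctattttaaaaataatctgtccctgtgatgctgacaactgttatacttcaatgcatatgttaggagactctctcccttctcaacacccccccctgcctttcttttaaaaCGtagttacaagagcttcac
The first 3 stretches lie wholly inside Suz12, depleted Suz12 and Pcl3 sites. The table held 22 of the 35 non-clustered genes. The 17 with a Suz12 site had a median of 16 CpG in these 250 bases (3 to 30), and the 5 without had a median of 5 (0 to 7). For a gene with several RefSeq starts, the one with most CpG was taken. RefSeq starts can differ from the annotated starts by which sites were assigned. The 250 bases of Cdh23, Pcdh15 and Pcdh20 overlap no Suz12 site, and those of Cdh9, which had no site, lie far upstream of its annotated start. Cdh1 is not among the 22.

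Non-clustered cadherin and protocadherin genes carried PRC2 sites more often than protein-coding genes at large. Suz12 bound 24 of 35 (68.6%, interval 52.0 to 81.4), against 24.6% of all protein-coding genes. A depleted Suz12 site lay at 21 (60.0%, 43.6 to 74.4), against 17.6% of all genes. A Pcl3 site lay at 18 (51.4%, 35.6 to 67.0), against 12.5% of all genes. An H3K27me3-depleted site lay at 0 of 35, with an upper bound of 9.89%, against 1.91% of all genes. The first 3 intervals lie above the value for all genes, and the last includes it. Protocadherins stood above cadherins, with Suz12 at 11 of 12 (91.7%, 64.6 to 98.5) and at 13 of 23 (56.5%, 36.8 to 74.4), but these intervals overlap.

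The number of annotated starts does not separate the sets, with a median of 2 in non-clustered members and in all genes. Among genes with a single start, Suz12 bound 8 of 13 members and 18.3% of all 9857 such genes.

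**Figure D1:**
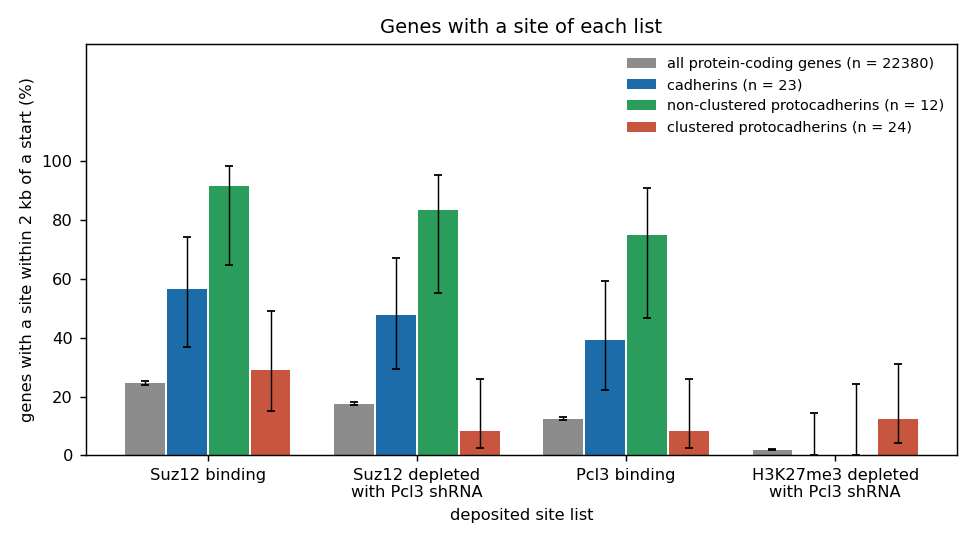
Percent of genes with a site of each list within 2 kb of a start (bars) with 95% Wilson intervals (lines), for all protein-coding genes, cadherins, non-clustered protocadherins and clustered protocadherins. Non-clustered protocadherins are highest for Suz12 binding (91.7%), depleted Suz12 and Pcl3, and H3K27me3-depleted sites occur only at clustered records (3 of 24) among the members.

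The Suz12 sites of the non-clustered members were also strong and wide. The median −log10 p of the strongest site was 184 over the 24 bound non-clustered members, against 36.1 over 5499 bound genes. The median width of the widest site was 2275 against 1300 bp. For the 7 bound clustered records both medians were below those of all bound genes, at 21.7 and 900 bp. A p-value too small for the number format is written as 0 and was set to the largest −log10 value, 307. This was so at 7 of the 24 members and at 7.36% of all bound genes. The strongest site covered a start in 22 of 24 members, and its center lay downstream of the start in 19, and the median offset was 407.5 bp.

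Depletion and Pcl3 binding went with strength. The depleted list rests on differences in read counts, and the study says that a change may be harder to detect at a weaker Suz12 peak. How far this limit of detection shapes the depleted counts was not tested. Of the 24, 21 had a depleted site (87.5%, 69.0 to 95.7), against 71.5% of all Suz12-bound genes, and 18 a Pcl3 site (75.0%, 55.1 to 88.0), against 47.4%. When bound genes were split into 5 equal bins by Suz12 p-value, 13 members fell in the strongest bin, and all 13 had a depleted and a Pcl3 site, as did 100% and 98.0% of all genes in that bin. In the next 2 bins all 8 members were depleted, against 99.4% and 93.1% of all genes, and 5 of 8 had Pcl3, against 74.0% and 40.9%. In the weakest 2 bins none of 3 members was depleted, against 52.1% and 12.9%. At equal strength the members were thus near the value for all genes, and no excess of depletion beyond that of strong sites can be read from these counts. No member had a Pcl3 site without a Suz12 site, and in all 18 the strongest Pcl3 site overlapped the strongest Suz12 site.

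**Figure D2:**
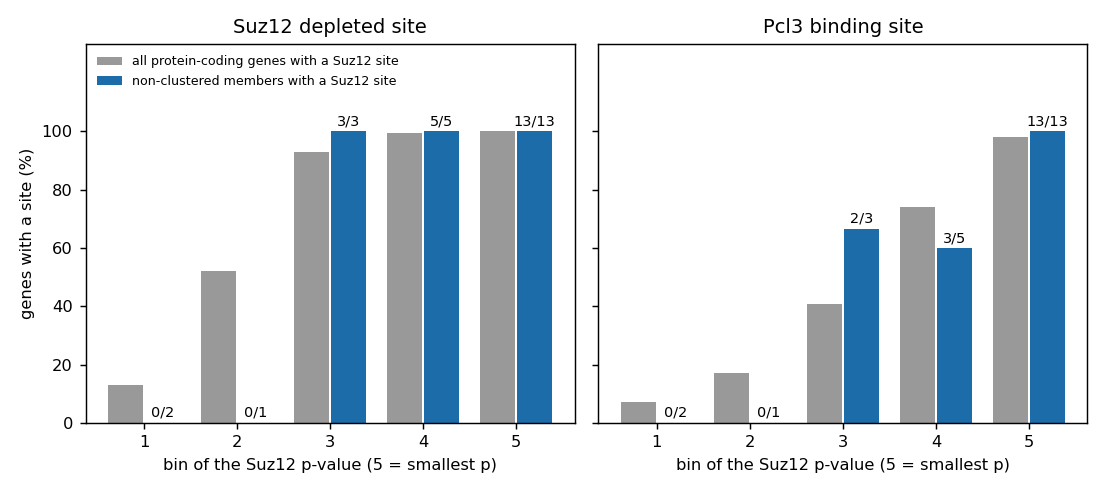
Percent of Suz12-bound genes with a depleted Suz12 site (left) and a Pcl3 site (right) in each of 5 bins of the Suz12 p-value (bin 5 has the smallest), for all protein-coding genes (grey) and non-clustered members (blue, with counts). Members with depleted sites fill the 3 strongest bins (3 of 3, 5 of 5 and 13 of 13), where 93.1% to 100% of all genes have one.

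Among the 5 type I classical cadherins, the founding group of the family, Suz12 bound Cdh2, Cdh3 and Cdh4 and not Cdh1 or Cdh15. Cdh2, N-cadherin of neural and heart cells, had a site of 3600 bp (p of 2.213e-187) that was depleted and overlapped Pcl3 (p of 6.02e-102). Cdh4, the retinal R-cadherin, had a site of 3000 bp (p of 1.63e-197), depleted, with a weaker Pcl3 site (p of 5.89e-33). Cdh3, P-cadherin, was depleted at 1800 bp (p of 2.60e-56) and had no Pcl3 site. Cdh1, E-cadherin, by which ESCs and epithelia adhere, had no site of any list. Cdh1 lies next to Cdh3 on chromosome 8, and the nearest Suz12 site to a Cdh1 start, 91101 bp away, is the one at the Cdh3 start. Cdh15, the muscle M-cadherin, had none either.

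Of the 13 type II classical cadherins, many of which mark subsets of neurons, 8 had a Suz12 site, 6 a depleted one and 5 a Pcl3 site. Cdh22, known from pituitary and brain, had a site of 3350 bp with p written as 0, and Cdh11, a cadherin of mesenchyme and bone, one of 3950 bp (p of 1.05e-293). Both held strong Pcl3 sites (p of 3.46e-136 and p of 6.56e-153). Cdh8, expressed in brain, followed with p of 4.52e-193 at a site that also lies within 2 kb of A330008L17Rik. Cdh6, Cdh20 and Cdh7 were weaker but depleted, with p between 3.45e-92 and 2.83e-36, and Cdh20 lacked Pcl3. Cdh24 (800 bp, p of 1.94e-16) and Cdh18 (600 bp, p of 2.13e-09) had weak sites that were not in the depleted list. The Cdh24 site is shared with Gm17606. Cdh5, the VE-cadherin of endothelium, had no site near its start, but a depleted Suz12 site in its body 40826 bp away (p of 1.85e-13). Cdh9, Cdh10, Cdh12 and Cdh19 had no site.

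Of the 5 remaining cadherins, Cdh23 and Cdh13 had sites of 3 lists. Cdh23 forms the tip links of hair cells and had a Suz12 site of 3100 bp with p written as 0 and a Pcl3 site (p of 1.78e-91), at an internal start and not at the most upstream one. A second site near the upstream start was weak (600 bp, p of 5.81e-09) and not depleted. Cdh13, T-cadherin, which is anchored in the membrane by a lipid, had p of 3.56e-102 over 1900 bp and Pcl3 (p of 4.78e-41). Cdh16 of kidney, Cdh17 of liver and intestine, and Cdh26 had none, and for Cdh16 the nearest Suz12 site was 5955 bp away.

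All 4 delta-1 protocadherins were bound and depleted. Pcdh7, known from brain and heart, had the widest Suz12 site of the family at 6700 bp (chr5:58105701-58112400, p written as 0), which reaches from upstream over the 5′ UTR into coding sequence, and its Pcl3 site of 7050 bp also had p written as 0. Pcdh1 had 4050 bp with p written as 0 and a far weaker Pcl3 site (p of 3.49e-35). Pcdh11x on the X chromosome had 1800 bp (p of 4.95e-56) and Pcl3 (p of 1.17e-28). Pcdh9 was the weakest (1250 bp, p of 7.01e-32), at a site that lay 1900 bp upstream of the annotated start and overlapped no Pcdh9 exon of this annotation, but covers the 250 bases before the RefSeq start. The nearest Pcl3 site lay 2150 bp from the annotated start, just outside the limit, and reached into the same 250 bases.

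All 5 delta-2 protocadherins had Suz12, depleted Suz12 and Pcl3 sites. Pcdh10, which takes part in axon growth, had 6550 bp (chr3:45179651-45186200) and Pcdh17 5900 bp (chr14:84842801-84848700), both with p written as 0. Their Pcl3 sites were among the strongest, with p written as 0 at Pcdh10 and p of 8.28e-308 at Pcdh17. Pcdh8, the paraxial protocadherin of the early mesoderm, had 4250 bp with p written as 0 and Pcl3 (p of 1.69e-169). Pcdh19, an epilepsy gene on the X chromosome, had 3950 bp (p of 1.435e-262) with Pcl3 (p of 2.40e-80), and a weaker second site (p of 4.31e-16) that was not depleted. Pcdh18 was weakest, with p of 1.35e-41 for Suz12 and 3.68e-13 for Pcl3.

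Among the other 3, Pcdh15, the partner of Cdh23 in the tip link, had Suz12 at 1900 bp (p of 3.42e-181), depleted, and Pcl3 (p of 1.44e-59). Pcdh20 had a site of 650 bp (p of 3.10e-11) inside its coding exon, 1503 bp from the start, which was not depleted. Pcdh12 of endothelium had none. The 2 tip-link partners thus both had depleted sites with Pcl3. Both fell in the strongest bin of Suz12 p, where 100% of all genes had a depleted site and 98.0% a Pcl3 site.

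**Figure D3:**
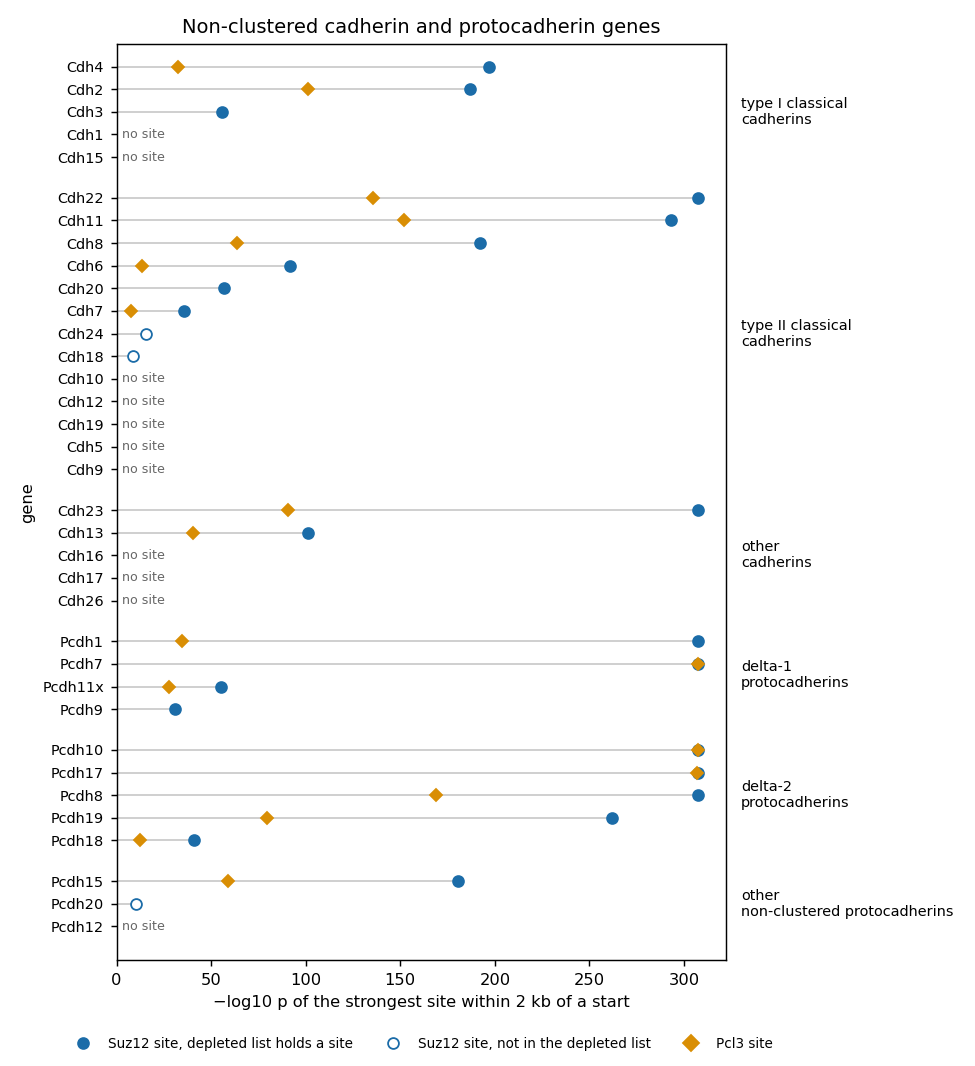
−log10 p of the strongest Suz12 site (circles, filled where the depleted list holds a site for the gene, open where it does not) and of the strongest Pcl3 site (diamonds) within 2 kb of a start, for the 35 non-clustered genes by subfamily. Values written as 0 sit at 307, the 3 open circles are Cdh18, Cdh24 and Pcdh20, and 11 genes have no site.

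The 11 non-clustered members without a site had few CpG around their starts. CpG density was counted in the 500 bp around each start, taking the start with most CpG for each gene. The 24 bound members had a median of 6.8 CpG per 100 bp (1.2 to 15.2), and the 11 unbound members 1.4 (0.4 to 7). Over all protein-coding genes the medians were 8.8 with and 3.8 without a Suz12 site. Cdh1, at 7, was the only unbound member above 2.6.

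Set beside genes of like CpG density, members were bound more often in each of 5 bins. In the middle bin (4 to 7.4 CpG per 100 bp) 11 of 12 members were bound, against 32.6% of all genes, and the exception was Cdh1. In the bin richest in CpG all 7 members were bound, against 44.2%. In the 2 poorest bins 1 of 6 and 3 of 8 members were bound, against 1.46% and 10.4%. The counts per bin are small and were not tested.

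**Figure D4:**
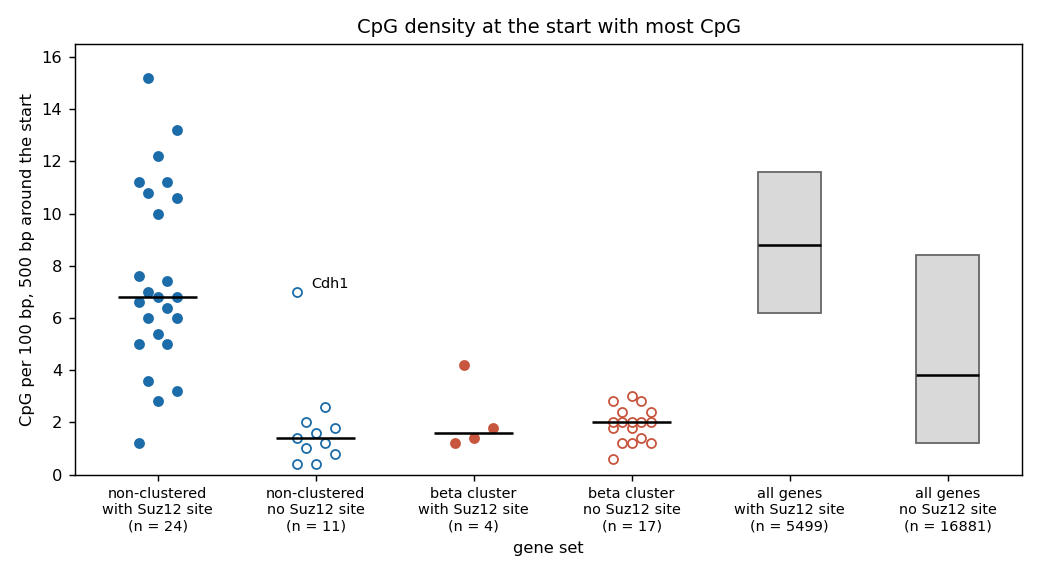
CpG per 100 bp in the 500 bp around the start with most CpG, for non-clustered members (blue) and beta cluster genes (red), filled with and open without a Suz12 site, with medians as lines. Grey boxes span the middle 50% of all genes, and Cdh1 stands apart from the other unbound members at 7.

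No non-clustered member had an H3K27me3-depleted site near a start, also among the 24 with Suz12 (0%, upper bound 13.8%), against 7.53% of all Suz12-bound genes. In the strongest bin of Suz12 p it was 0 of 13, with an upper bound of 22.8%, against 18.2% of all genes there. Chromosome 11 held 29.2% of the H3K27me3-depleted sites and no member. Without it the values for all genes were 5.90% and 13.9%, a comparison chosen after the data were seen. Each of these lies within the members' interval, so a difference was not detectable with this number of genes. Farther from the starts, Cdh22 was the only non-clustered member with such sites in its body, 2 of 1000 bp at 5337 and 46487 bp from a start (p of 5.31e-08 and p of 6.92e-08). The Cdh22 body also held 7 further Suz12 sites, 3 of them depleted, the strongest over its 3′ end (1800 bp, p of 3.28e-95).

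The clustered protocadherins were counted in 2 ways. By gene record, Suz12 lay at 7 of 24 (29.2%, 14.9 to 49.2), depleted Suz12 and Pcl3 at 2 each (8.33%, 2.32 to 25.8) and H3K27me3-depleted sites at 3 (12.5%, 4.34 to 31.0). The shares of all genes, in the same order of lists, were 24.6%, 17.6%, 12.5% and 1.91%. The intervals for Suz12, depleted Suz12 and Pcl3 include that share, and the interval for H3K27me3 lies above it. The 3 records behind the H3K27me3 count are Pcdha11 and Pcdhgc5, with 10 starts each, and Pcdha3, which lies inside the Pcdha11 span. The median over all genes is 2 starts, and the interval treats records as independent, so no excess can be read from it. With the most upstream start only, 1 record remained. Since records merge promoters, the clusters were also counted by distinct start, beside all 70064 starts of protein-coding genes, of which 19.0% had a Suz12, 13.2% a depleted Suz12, 9.11% a Pcl3 and 1.25% an H3K27me3-depleted site. Starts of a cluster are neighbours and can share a site, so they are not independent.

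All 11 alpha starts had a Suz12 site, 7 a depleted one, 3 Pcl3 and 2 an H3K27me3-depleted site. Across its span of 257 kb the alpha cluster held 12 Suz12 sites, 8 of them depleted. The strongest was at the last start, that of transcript Pcdha11-202 (2250 bp, p of 1.16e-250), which had sites of all 4 lists, with Pcl3 at p of 2.08e-43 and H3K27me3 at p of 2.62e-09. The other alpha starts ranged from p of 5.57e-09 to p of 1.09e-70. Taking the strongest site within 2 kb of each start, where 2 neighbouring starts share 1 site, its center lay downstream at all 11, by 210 to 2091 bp. Counting any site, 3 starts were covered by one and 8 were not. CpG density was 7, 8.6 and 4.8 per 100 bp at the covered starts and 3 to 4.4 at the others. At 9 of the 11 starts it was higher at the center of the strongest site than at the start. The 8 depleted sites had a median −log10 p of 40.6 and the 4 others one of 16.2.

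At 7 of 10 gamma starts there was a Suz12 site, at 6 a depleted one, at 5 Pcl3 and at 3 an H3K27me3-depleted site. The gamma span of 168 kb held 28 Suz12 sites, 15 of them more than 2 kb from any annotated start, 14 depleted Suz12 sites, 10 Pcl3 sites and 5 H3K27me3-depleted sites. The strongest Suz12 site lay at the start of Pcdhgc5-208 (3250 bp, p of 1.32e-119). The next lay 117 bp from the start of Pcdhgc5-202 (2450 bp, p of 3.00e-87). Another lay 1577 bp upstream of the start of Pcdhgc5-204 (2100 bp, p of 7.48e-78), and a separate site covered that start (1400 bp, p of 4.68e-59). The starts of Pcdhgc5-208, Pcdhgc5-202 and Pcdhgc5-205 had sites of all 4 lists. As in the alpha cluster, depleted sites were the stronger ones, with a median −log10 p of 32.1 against 11.2. In both clusters a loss may be harder to detect at weak sites.

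Decreased H3K27me3, listed near no non-clustered start, was found in the alpha and gamma clusters. Of the 21 alpha and gamma starts 5 had such a site, and 4 of these also had a depleted Suz12 site and Pcl3. The remaining one, the start of Pcdha3-201, had a Suz12 site (p of 1.84e-22) that was neither depleted nor near Pcl3. The 2 spans held 7 of the 23 H3K27me3-depleted sites of chromosome 18. Of the 284 Suz12 sites of that chromosome, the alpha span held 12 and the gamma span 28, and of its 191 Pcl3 sites 5 and 10. All 7 H3K27me3-depleted sites had p from 4.39e-08 to 2.32e-10, where the study's cutoff was 1e-07. They ranked 224 to 516 among 678, so they were neither among the strongest nor among the weakest of the list.

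A Suz12 site lay at 5 of the 25 beta starts, of 4 genes (20.0%, 8.86 to 39.1), close to the 19.0% of all starts. None was depleted, and there was no Pcl3 or H3K27me3-depleted site. For each of these 3 lists 0 of 25 starts allows up to 13.3%, which includes the share of all starts. By gene record, 0 of 21 allows up to 15.5%. That lies below the 17.6% of all genes for depleted Suz12, but includes their share for Pcl3 and H3K27me3. The reading for depleted Suz12 thus depends on the unit counted, and neighbouring starts or records are not independent. Pcdhb1, at the alpha end, had the strongest (1100 bp, p of 5.26e-23), and Pcdhb3, Pcdhb21 and Pcdhb22 had sites of 600 to 700 bp with p between 8.15e-11 and 2.1e-11. Beta starts were poor in CpG, with a median of 1.8 per 100 bp against 3.6 over all distinct starts. Alpha starts had 4.2 and gamma starts 3.2.

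Reads were kept only when they aligned at 1 place, and the clusters hold related genes that share stretches of sequence. In the 4000 bp around a start, the median share of 30-base words that occur once in mm9 was 98.0% at non-clustered, 96.7% at gamma, 92.8% at beta and 87.4% at alpha starts. Among beta starts it was 93.8% at the 5 with a Suz12 site and 87.1% at the 20 without. The share ranged from 85.9% to 100% at the alpha starts, all of which had sites, and from 76.2% to 95.7% at the 20 beta starts without. Words were matched exactly, while the alignment allowed mismatches. A word counted as single can thus have a near copy, for which its read would have been dropped. The part of unique alignment in the beta counts was not tested.

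**Figure D5:**
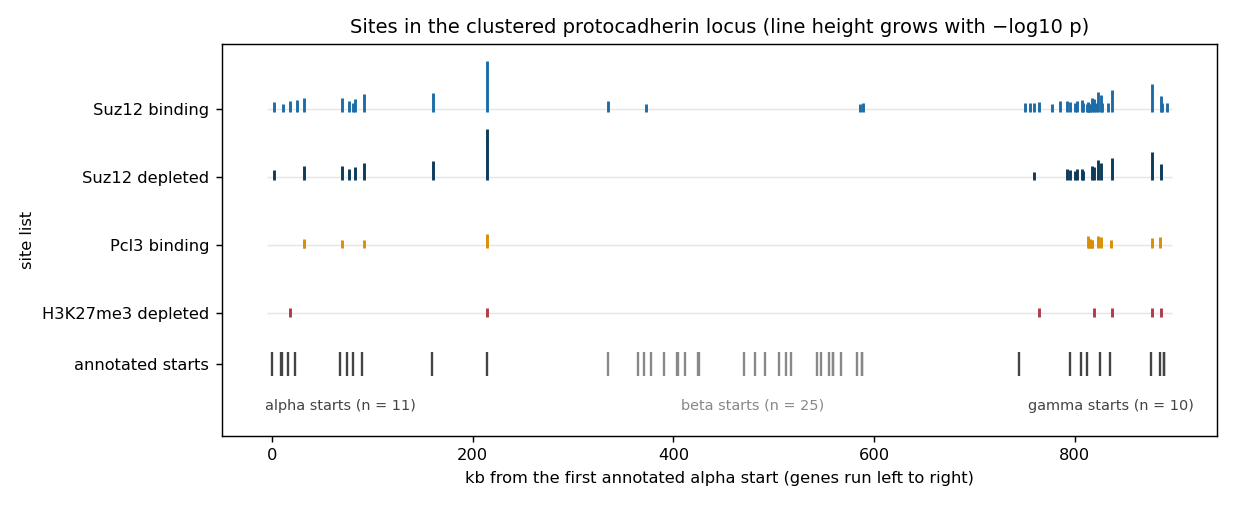
Sites of the 4 lists along the clustered protocadherin locus, in kb from the first annotated alpha start, with line height growing with −log10 p and annotated starts as ticks at the bottom. The alpha span holds 12 Suz12 sites and the gamma span 28, and the beta span between them holds 4 Suz12 sites and no site of the other lists.

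The wider cadherin pathway was read from a list of 39 genes, of which 38 were in the annotation. Suz12 bound 19 of 38, against 24.6% of all genes, and 15 had a depleted site, against 17.6%. A Pcl3 site lay at 10, against 12.5%, and an H3K27me3-depleted site at 1, against 1.91%. The groups of the list are small, and their counts were not tested. Catenins, which tie classical cadherins to actin, had 1 of 7 with a Suz12 site, Ctnnd2 (p of 2.39e-71), the delta-catenin of neurons. All 5 listed repressors of Cdh1 transcription, Snai1, Snai2, Zeb1, Zeb2 and Twist1, had Suz12 sites, 3 of them depleted. Twist1 (p of 2.63e-228) and Zeb2 (p of 7.17e-187) were strongest, while the sites of Snai2 and Zeb1 were not depleted. All 3 Celsr genes of planar polarity were bound and depleted. Of the Fat and Dachsous genes 2 of 5 were, with p written as 0 at Fat4 and p of 2.82e-102 at Dchs1. Desmosomal cadherins had 3 of 9 with a Suz12 site, near the share of all genes, and none stronger than p of 2.15e-21. The 1 listed gene with decreased H3K27me3 was Clstn1 (p of 9.55e-08), which encodes a calsyntenin of the synapse.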

How the data were processed

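The values used were the p-values that the authors deposited, 1 for each ChIP-seq site in 4 lists. Per the study's methods, reads of 30 nucleotides were mapped to mm9 by Bowtie (version not given in the sources used here). The settings allowed 2 mismatches in the leading bases of a read and dropped reads with more than 1 reportable alignment. The background was made equal between the 2 libraries compared, and windows of 400 bp that passed a Skellam cutoff of 1e-07 were merged into sites. Unique alignment leaves out repeated sequence.

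Here sites were matched to transcript starts of GENCODE vM1 with Python 3.11.15, numpy 2.4.6, pandas 2.3.3 and scipy 1.17.1. The search was tested on simulated sites. Only counts, Wilson intervals and medians were computed, since no replicated list exists. Coordinates are 1-based mm9.

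The members and gene lists were chosen with earlier results of these data known. Genes named with values were the 10 non-clustered members with the smallest Suz12 p-value, those with H3K27me3-depleted sites, those bound but not depleted, clustered members with sites, Pcdh7, Cdh1 and Cdh2. Others named were chosen after their values were seen, to complete each subfamily. Alternatives were distances of 1 and 5 kb, site centers, a p-value of at most 1e-12, protein-coding transcripts and the most upstream start.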

Additional observations from a re-analysis of the deposited data

How the results depend on the processing

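Of 67 values under other distances, cutoffs and choices of starts, 60 stayed within 1.5 times the reported count, within 1 SD over genes for the median, or within the interval for shares. Among the 35 non-clustered members Suz12 binding ranged from 22 to 24, depleted Suz12 from 19 to 21 and Pcl3 from 17 to 20, and H3K27me3-depleted sites stayed at 0. The 7 values that moved all belong to the 24 clustered records, whose counts are small. Suz12 binding fell from 7 to 4 records with sites within 1 kb, with site centers within 2 kb and with p of at most 1e-12. H3K27me3-depleted sites fell from 3 records to 0 with p of at most 1e-12, and to 1 with the most upstream start only. With that start only, depleted Suz12 fell from 2 to 1 and Pcl3 from 2 to 0, since it keeps 1 of the merged starts of each record. The median −log10 p of the non-clustered members was lowest, 141, with protein-coding transcripts only. The SD over these genes was 121, so the criterion for the median is a wide one. The values for all genes moved too. With p of at most 1e-12 the median over all bound genes rose from 36.1 to 50.7, and their depleted share from 71.5% to 84.5%. For non-clustered members the depleted share rose from 87.5% to 95.5%.

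No paired analysis was possible because the Pcl3-TAP libraries and inputs that share replicate numbers have 1 list between them. No replicate was left out for the same reason. The lists hold no reads, and the read totals that the study gives were not used here, so the effect of depth on the counts was not tested.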
